A study of Mus musculus with 6 samples.

Results

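The genes that bring nuclear-encoded proteins into mitochondria were followed in 2T3 mouse pre-osteoblasts kept for 3 days in static culture or in rotation. Members were all probe sets that the platform's probe table maps to 1 symbol beginning with Timm or Tomm, or to Pam16, Dnajc19, Grpel1, Grpel2, Samm50, Mtx1, Mtx2, Pmpca, Pmpcb, Chchd4 or Gfer. This rule found 67 of 45037 probe sets, which stand for 34 of 18194 named genes. Dnajc19 gave no member, because its probe sets are shared with a pseudogene; the probe sets of Tomm5 and Tomm6 are likewise shared with another gene, 6 probe sets in all, and were left out.

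There were 3 static and 3 rotated samples, each total RNA on 1 Affymetrix array, from cells at passage 8 to 10. The rotating wall vessel, a slowly turning chamber filled with medium that is used to mimic microgravity on the ground, is given as the simulator for both groups. Groups follow the sample titles, in which the letter R was read as rotated; for static 2 and static 3 another label, the source, reads as microgravity and so contradicts the title. 2T3 is 1 clonal line from the calvaria of mice carrying a T antigen transgene driven by a Bmp2 promoter, so all samples share that transgene and 1 clone. Whether each sample was a culture of its own is not stated, and p-values then reflect only how far these samples scatter, possibly for technical reasons. In bulk RNA, fewer cells making a transcript and less transcript per cell cannot be told apart.

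Nearly all mitochondrial proteins are made in the cytosol and pass the outer membrane through the TOM complex, in which Tomm20, Tomm22 and Tomm70a act as receptors and Tomm40 as the channel. Proteins with a cleavable presequence then cross the inner membrane through the TIM23 complex and are pulled into the matrix by a chaperone motor, while carrier proteins are escorted by small TIM chaperones to the TIM22 complex. Outer membrane barrel proteins are inserted by the SAM complex, presequences are cut off by the processing peptidase, and small cysteine-rich proteins are trapped in the intermembrane space by the Chchd4 and Gfer disulfide relay. Cells with a high need for respiration depend on this machinery, and osteoblasts are known to raise their mitochondrial activity as they mature.

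Values below are log2 of the deposited signal plus an offset of 16.6, after quantile normalization; differences are rotated minus static with limma's moderated standard error (SE), and folds are on this offset scale. All 9 fixed markers of the osteoblast lineage lay above the filter on dim probe sets. Alpl, Ibsp and Pth1r among them were dim, with deposited signals of 34.7 to 103.6, 28.6 to 189.2 and 17.4 to 370.4. Of the markers of other cell types, Ptprc, Pecam1, Cdh5, Myod1, Myog, Cdh1, Krt18 and Adipoq lay below it, while Cd68, Csf1r and Adgre1 (3 of 4 macrophage markers), Kdr, Des, Epcam and Fabp4 lay above it. Deposited signals of Csf1r were 168.7 to 261.7, of Epcam 62.8 to 326.6 and of the adipocyte gene Fabp4 2439.0 to 4697.7, so these lists were not all at background. The mean level of the osteoblast list was 10.30 to 10.87 in the static and 9.63 to 10.16 in the rotated samples, and its part in the results was not tested. Rotated 1 had an actin 3' over 5' signal ratio of 3.21, against 1.29 to 1.57 on the other arrays. Its transferrin receptor ratio was 8.92 against 1.62 to 3.71, while its GAPDH ratio was 0.875 against 0.748 to 0.867. Rotated 1 and static 1 had the lowest mean correlations with the other arrays (0.914 and 0.918, the others 0.942 to 0.948). The median deposited signal was 130.1 on static 1 and 70.0 to 88.8 on the others, and the 10th percentile 22.1 against 4.5 to 7.2. The part of this distribution in the results was not tested. Of the 32 tested import genes 14 (43.8%) had their highest value on rotated 1, against 27.7% of all tested genes; the part of RNA quality in the results was not tested.

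Of the import machinery, 62 probe sets and 32 genes passed the filter on dim probe sets. No member passed limma's test after Benjamini-Hochberg adjustment over all 27022 tested probe sets, of which 0 passed (0%), with 2228 at an unadjusted p under 0.05 (8.25%). The largest difference among the members belonged to the small TIM gene Timm8b, 1.90-fold higher in value in rotated culture (0.93 ± 0.19 SE, adjusted p 0.487, n = 3 per group). Tomm7, Timmdc1 and Tomm70a followed with 0.58, 0.52 and 0.48, and the lowest value was that of Gfer at -0.27. The other 29 genes besides Timm8b, Tomm7 and Timmdc1 differed by less than 0.5 in either direction. By value 20 genes were higher and 12 lower in rotated culture, a share higher in value that is 53.2% among all tested genes. Their median difference was 0.17, against 0.03 over all 12554 tested genes. That median was 0.031 without static 2, 0.074 without rotated 3 and 0.093 without rotated 1, and 0.055 without static 1 and rotated 1 together. With array weights it was 0.061 and with median centring 0.29.

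**Figure D1:**
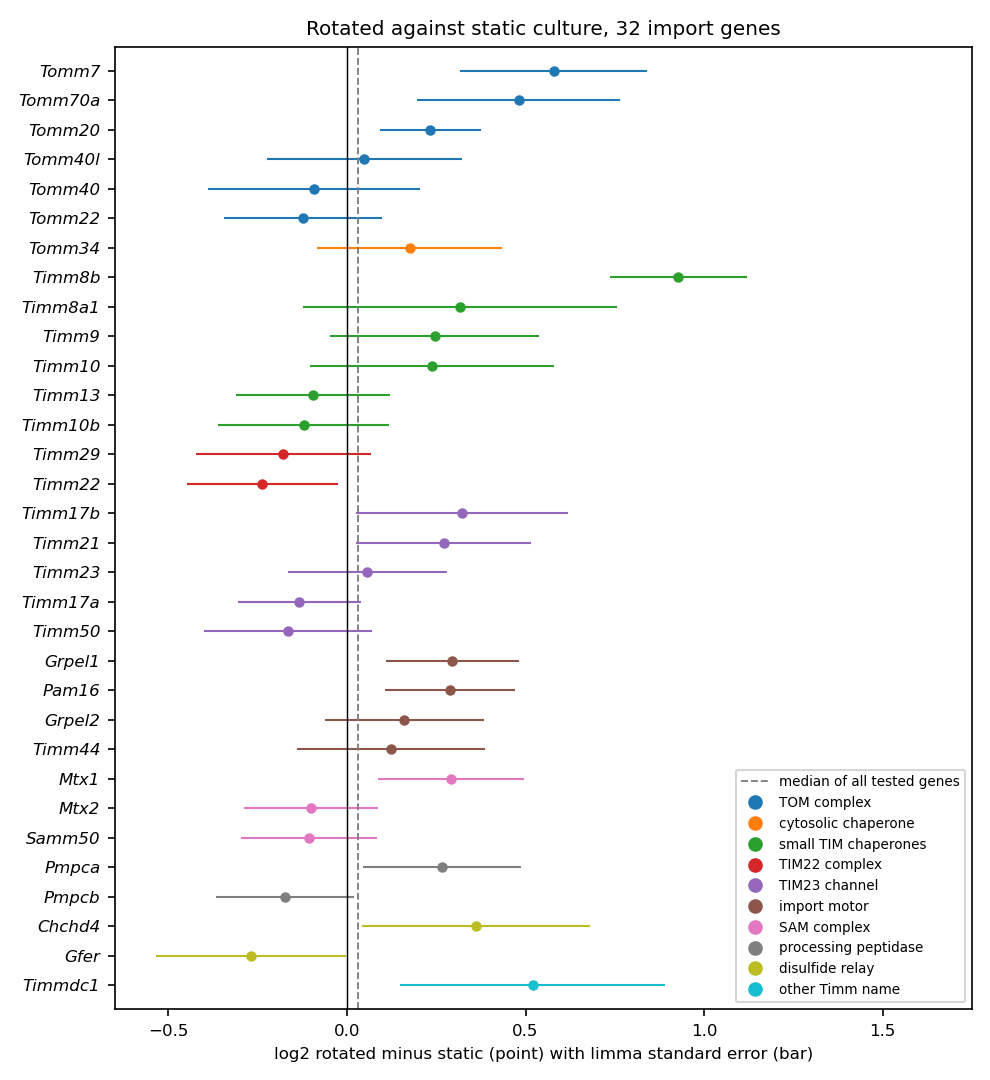
Log2 difference, rotated minus static, of each of the 32 tested import genes (points, brightest probe set of the gene) with limma's standard error (bars), coloured by role. The dashed line is the median of all tested genes, 0.03; Timm8b at 0.93 lies apart from the other members, which span -0.27 to 0.58.

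At an unadjusted p under 0.05 there was 1 member gene higher, Timm8b, and 0 lower, where 4.49% of all tested genes were higher and 3.74% lower. With the replicate number as a block 3 genes were higher, Timm8b, Tomm7 and Tomm70a, where the share over all tested genes was 8.23%, and none of them passed after adjustment; 0 were lower, against 6.75%. The rotated values lay entirely above the static ones in 4 member genes (12.5%), against 8.29% of all tested genes, and entirely below in 2, against 7.11%. The genes above were Timm8b, Tomm20, Pam16 and Grpel1, and those below were Timm22 and Timm17a. With array weights the genes higher at that p were Timm8b, Tomm7 and Tomm20, where the share over all tested genes was 9.77%. Without static 2 or without rotated 3 they were Timm8b and Tomm7, and without rotated 2 Timm8b and Tomm70a. Of all 27022 tested probe sets, 2062, 3362 and 1930 were at that p in either direction without static 2, rotated 3 and rotated 2. With all samples the number was 2228. These numbers count probe sets in either direction, so they are not a matched background for genes counted higher. The matching share of genes is not given for these fits. The single gene counted at the unadjusted p is a smaller share of the members than the background.

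Timm8b is a partner of the small TIM chaperones that shield hydrophobic proteins on their way through the intermembrane space. Its deposited signal was 1250.3, 1147.5 and 1193.2 in static 1, 2 and 3, and 2487.0, 2359.6 and 2090.6 in rotated 1, 2 and 3. On the log2 scale these were 10.35, 10.17 and 10.20 against 11.28, 11.20 and 11.02. All rotated samples lay above all static ones, and the gap between the groups was wider than the spread within either (SD 0.094 static and 0.13 rotated). The 95% interval of the difference ran from 0.49 to 1.36. Between same-numbered samples the differences were 0.93, 1.03 and 0.82, and without rotated 1 the difference was 0.87. Its unadjusted p in limma was 0.000851, the rank 42 of 27022, and the adjusted p was 0.487; with the replicate block it was 0.151 and with array weights 0.057. The gene has 1 probe set on the array, so no other probe set checks it.

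The start of Timm8b lies 52 bases from that of Sdhd, a membrane anchor subunit of succinate dehydrogenase that is transcribed the other way, by the RefSeq promoter windows of assembly GRCm38.p6. Sdhd stood at 11.95, 11.62 and 11.68 in static 1, 2 and 3 and at 11.62, 11.84 and 11.60 in rotated 1, 2 and 3. Its groups overlapped and its difference was -0.06 ± 0.18 (adjusted p 0.930). Whether the neighbours differ from each other was not tested. Among the 30 member genes with such a window, 10 have a start of another gene within 1000 bases upstream, on the opposite strand. Among these pairs are Timm23 with Parg, Pmpca with Entr1, Chchd4 with Tmem43 and Timm10b with Arfip2. None of the 9 partners that were tested passed, and their differences ran from -0.31 for Tmem43 to 0.61 for 2210406O10Rik, the partner of Grpel1.

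The promoter windows of Timm8b, Tomm20 and Pam16 are shown because these were the 3 genes with the smallest p among those whose rotated values lay entirely above the static ones. Each window is 300 bases, from 250 before to 50 after the start, 5' to 3' on the gene's strand, from RefSeq (GRCm38.p6): Timm8b at chr9:50603651-50603950 on the plus strand, Tomm20 at chr8:126945872-126946171 and Pam16 at chr16:4624897-4625196 on the minus strand. Capitals mark, on either strand, the non-palindromic form of the core recognised by nuclear respiratory factor 1, a factor known for promoters of mitochondrial genes.
Timm8b: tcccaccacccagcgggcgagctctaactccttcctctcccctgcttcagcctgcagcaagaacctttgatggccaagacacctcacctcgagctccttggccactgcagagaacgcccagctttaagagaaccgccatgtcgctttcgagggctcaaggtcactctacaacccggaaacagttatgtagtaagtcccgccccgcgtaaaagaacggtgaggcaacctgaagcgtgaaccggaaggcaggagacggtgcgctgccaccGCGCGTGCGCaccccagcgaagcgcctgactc
Tomm20: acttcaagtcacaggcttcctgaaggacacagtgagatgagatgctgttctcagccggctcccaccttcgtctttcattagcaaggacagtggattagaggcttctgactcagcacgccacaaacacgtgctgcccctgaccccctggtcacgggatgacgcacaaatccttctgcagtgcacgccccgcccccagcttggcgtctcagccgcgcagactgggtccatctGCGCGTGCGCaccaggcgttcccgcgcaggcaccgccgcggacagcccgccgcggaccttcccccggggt
Pam16: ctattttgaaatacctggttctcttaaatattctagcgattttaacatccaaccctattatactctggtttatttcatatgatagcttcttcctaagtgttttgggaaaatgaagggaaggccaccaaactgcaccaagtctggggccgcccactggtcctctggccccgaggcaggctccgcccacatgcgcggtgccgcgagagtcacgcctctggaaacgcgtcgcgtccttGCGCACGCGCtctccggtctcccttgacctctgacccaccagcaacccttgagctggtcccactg

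The marked letters begin at base 269 of the window in Timm8b, 231 in Tomm20 and 236 in Pam16, counted from 1 at the 5' end. They were added to the search after these windows had been read, so their presence here is a description. Searched on both strands, they occur in 1.39% of all 32851 windows and in those of 4 of the 30 member genes, Chchd4, Pam16, Timm8b and Tomm20. The palindromic form of the core occurs in 0.971% of all windows and in 0 of the members'. CCGGAAGT, a core of ETS factors such as GA-binding protein, occurs in 3.89% of all windows and in those of 9 member genes: Mtx2, Pmpcb, Timm10, Timm10b, Timm23, Timm29, Timm8a2, Timmdc1 and Tomm70a. AAGATGGCG, a core of YY1, occurs in 1.40% of all windows and in those of Mtx1 and Timm50. These are letters in a window, not sites shown to be bound.

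**Figure D2:**
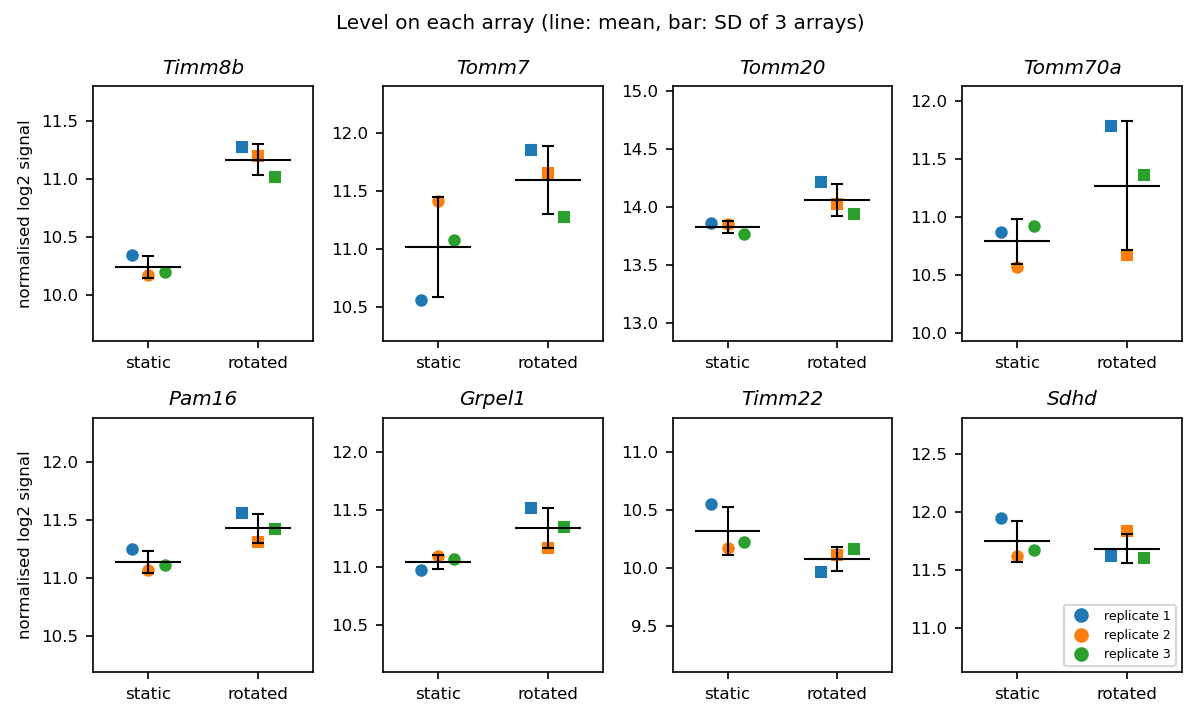
Normalised log2 signal on each of the 6 arrays for 7 import genes and for Sdhd, the neighbour of Timm8b (circles static, squares rotated, colours the replicate number; line the mean, bar the SD of 3 arrays; every panel spans the same range of log2 units). The rotated Timm8b values, 11.02 to 11.28, lie above its static values of 10.17 to 10.35, while the Sdhd groups overlap.

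In the TOM complex 4 of 6 tested genes were higher and 2 lower in value, with a median of 0.14. Tomm7, a small subunit that steers assembly of the complex, stood at 10.56, 11.42 and 11.08 in static 1, 2 and 3 and at 11.86, 11.65 and 11.28 in rotated 1, 2 and 3. Static 2 lay above rotated 3, so the groups overlapped for this probe set, and the difference was 0.58 ± 0.26 (adjusted p 0.607). Between same-numbered samples it was 1.30, 0.24 and 0.20, and it was 0.35 without static 1 and 0.22 without static 1 and rotated 1. A second Tomm7 probe set did not overlap, with static values of 10.46, 10.79 and 10.52 and rotated values of 11.18, 11.25 and 11.06 (0.57 ± 0.20, adjusted p 0.592). The remaining Tomm7 probe sets differed by 0.71 ± 0.33 and 0.37 ± 0.50, so all 4 were higher in value. Among these 4, the brightest, the one at 0.71 and the one at 0.37 carry a suffix that marks probes shared with other transcripts.

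Tomm20, the receptor for presequences, was measured by 6 probe sets, all higher in value in rotated culture, from 0.22 to 0.59. Its brightest probe set stood at 13.86, 13.85 and 13.77 in static 1, 2 and 3 and at 14.21, 14.03 and 13.94 in rotated 1, 2 and 3 (0.23 ± 0.14, adjusted p 0.647). Rotated values lay above the static ones in 2 of the 6, the other being the probe set at 0.59 ± 0.21 (adjusted p 0.592), whose suffix marks possible cross-hybridisation. In 5 of the 6 the highest array was rotated 1, and without it the 6 differences ran from 0.017 to 0.39. Tomm20 has processed copies elsewhere in the mouse genome, so its signal cannot be assigned to 1 locus with certainty.

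Tomm70a, the receptor for carrier proteins, stood at 10.88, 10.57 and 10.93 in static 1, 2 and 3 and at 11.78, 10.68 and 11.36 in rotated 1, 2 and 3. Rotated 2 lay within the static range, and the difference of 0.48 ± 0.28 (adjusted p 0.644) was 0.23 without rotated 1 and 0.095 with array weights. Its other 3 tested probe sets differed by 0.29, 0.03 and 0.32. The receptor Tomm22 stood at 11.24, 11.89 and 11.74 in static 1, 2 and 3 and at 11.28, 11.65 and 11.56 in rotated 1, 2 and 3, and the channel Tomm40 stood at 9.62, 9.30 and 9.83 in static 1, 2 and 3 and at 9.24, 9.17 and 10.07 in rotated 1, 2 and 3. Both overlapped between the groups and were slightly lower in value, at -0.12 ± 0.22 and -0.09 ± 0.30; Tomm22 was 0.035 with median centring and Tomm40 0.032 without rotated 1. Their 95% intervals, -0.62 to 0.38 and -0.76 to 0.57, leave room for changes in either direction. Tomm40l, a paralogue of the channel, differed by 0.05 ± 0.27 by its brighter probe set, and by -0.068 with the values as deposited. Its dimmer probe set differed by 0.38 ± 0.40. Tomm34, a cytosolic chaperone of precursors, stood at 9.20, 9.25 and 9.26 in static 1, 2 and 3 and at 8.96, 9.54 and 9.74 in rotated 1, 2 and 3, so rotated 1 was the lowest array and the others the highest (0.18 ± 0.26).

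Among the small TIM chaperones 4 of 6 tested genes were higher and 2 lower in value, with a median of 0.24. Timm8a1, the homologue of the gene mutated in deafness-dystonia syndrome, varied more between replicates than between groups. It stood at 12.76, 10.99 and 12.23 in static 1, 2 and 3 and at 12.37, 11.69 and 12.88 in rotated 1, 2 and 3 (0.32 ± 0.44, adjusted p 0.832), and its other probe set differed by -0.18 ± 0.39. Timm10, which forms the main hexamer with Timm9, had the same shape, with 11.31, 9.90 and 10.67 against 10.95, 10.53 and 11.12 (0.24 ± 0.34). In both genes replicate 2 was the lowest array of each group, and without static 2 the differences were -0.19 for Timm8a1 and -0.13 for Timm10.

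By its brighter probe set Timm9 was flat apart from rotated 1. Static values were 8.70, 8.80 and 8.69 and rotated values 9.56, 8.74 and 8.63, giving 0.25 ± 0.29, or -0.045 without rotated 1. The dimmer Timm9 probe set differed by 0.19 ± 0.43, or 0.34 without rotated 1. Timm13, the partner of Timm8 proteins, stood at 11.65, 11.80 and 11.80 in static 1, 2 and 3 and at 11.25, 11.85 and 11.87 in rotated 1, 2 and 3. Rotated 1 was the lowest array, and the difference of -0.09 ± 0.22 was 0.11 without it and 0.074 with median centring. Timm10b, which docks the chaperones on the TIM22 complex, stood at 10.92, 11.40 and 11.32 in static 1, 2 and 3 and at 10.71, 11.39 and 11.19 in rotated 1, 2 and 3 by its brightest probe set, with overlapping groups. It differed by -0.12 ± 0.24, by 0.027 with median centring and by 0.071 without rotated 1, while its other 3 probe sets differed by 0.10, 0.20 and 0.48. Timm8a2 lay below the filter, with deposited signals of 1.4 to 9.5 in static and 4.0 to 24.6 in rotated samples.

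The carrier translocase TIM22 was the role in which both genes were lower in value. Timm22, its channel, stood at 10.55, 10.17 and 10.23 in static 1, 2 and 3 and at 9.96, 10.11 and 10.16 in rotated 1, 2 and 3. Every rotated value lay below every static one, by a small margin between static 2 and rotated 3, and the difference was -0.24 ± 0.21 (adjusted p 0.732). Its dimmer probe set did not overlap either, with 6.84, 7.13 and 7.03 against 6.78, 6.77 and 6.74 (-0.24 ± 0.31). Timm29, another subunit, stood at 10.87, 10.28 and 10.43 in static 1, 2 and 3 and at 10.62, 10.06 and 10.37 in rotated 1, 2 and 3. It differed by -0.18 ± 0.25 and -0.23 ± 0.27 by its 2 probe sets, with overlapping groups. Static 1 was the highest array for the brighter probe set of both genes, and without it Timm22 differed by -0.12 and Timm29 by -0.0056; without static 1 and rotated 1 Timm22 differed by -0.059.

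The TIM23 channel had 3 of 5 tested genes higher and 2 lower in value, with a median of 0.06. Timm23, the pore, stood at 12.83, 12.19 and 12.22 in static 1, 2 and 3 and at 12.68, 12.22 and 12.51 in rotated 1, 2 and 3, so the groups overlapped (0.06 ± 0.22), and the difference was -0.047 without rotated 1. Timm17a, a channel partner, stood at 11.55, 11.61 and 11.48 in static 1, 2 and 3 and at 11.41, 11.36 and 11.47 in rotated 1, 2 and 3. Its groups did not overlap, though static 3 and rotated 3 were nearly level, and it differed by -0.13 ± 0.17, and by 0.039 with median centring. The probe sets of its paralogue Timm17b pointed in opposite directions, 0.32 ± 0.30 and -0.49 ± 0.32. Its brighter one, whose suffix marks possible cross-hybridisation, stood at 10.71, 11.51 and 11.26 in static 1, 2 and 3 and at 11.74, 11.78 and 10.91 in rotated 1, 2 and 3. The other read 10.21, 10.98 and 10.71 against 9.49, 10.53 and 10.40, with rotated 1 the lowest array. Timm50, the presequence receptor of the complex, stood at 9.74, 9.69 and 9.90 in static 1, 2 and 3 and at 9.32, 9.60 and 9.92 in rotated 1, 2 and 3 by its brighter probe set, where rotated 1 was the lowest array and without which the difference was -0.020. Its 2 tested probe sets likewise pointed apart, at -0.16 ± 0.23 and 0.17 ± 0.29. Timm21, which links the complex to TOM and to respiratory chain assembly, stood at 10.29, 10.07 and 10.15 in static 1, 2 and 3 and at 10.83, 10.46 and 10.03 in rotated 1, 2 and 3. Rotated 3 was the lowest array, and the gene differed by 0.27 ± 0.25, or 0.075 without rotated 1.

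All 4 tested genes of the import motor were higher in value, with a median of 0.22. Pam16, which restrains the co-chaperone that drives the motor's Hsp70, stood at 11.24, 11.06 and 11.11 in static 1, 2 and 3 and at 11.56, 11.30 and 11.42 in rotated 1, 2 and 3. Its groups did not overlap, and the same-numbered differences of 0.31, 0.24 and 0.31 were close to each other (0.29 ± 0.18, adjusted p 0.655). The only Pam16 probe set carries a suffix that marks probes shared with other transcripts. Grpel1, the nucleotide exchange factor of that Hsp70, stood at 10.97, 11.10 and 11.07 against 11.51, 11.17 and 11.35 and did not overlap (0.29 ± 0.19, adjusted p 0.655). Its stress-linked paralogue Grpel2 stood at 10.06, 9.93 and 10.17 in static 1, 2 and 3 and at 10.51, 10.08 and 10.04 in rotated 1, 2 and 3 by the brighter probe set, with overlapping groups (0.16 ± 0.22, or 0.0098 without rotated 1). The dimmer Grpel2 probe set read 7.06, 7.74 and 7.68 in static 1, 2 and 3 and 9.02, 8.07 and 7.92 in rotated 1, 2 and 3, a difference of 0.84 ± 0.36 (adjusted p 0.606) that was 0.50 without rotated 1. Timm44, the motor's anchor, stood at 11.43, 10.62 and 10.93 in static 1, 2 and 3 and at 11.47, 10.84 and 11.06 in rotated 1, 2 and 3. Replicate 2 was the lowest array of each group, and the gene differed by 0.12 ± 0.26, and by -0.051 without rotated 1; its other probe sets gave 0.24 and -0.06.

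Outer membrane insertion was represented by 3 tested genes. Mtx1, a metaxin of the SAM complex, stood at 10.58, 10.95 and 10.55 in static 1, 2 and 3 and at 11.13, 10.95 and 10.88 in rotated 1, 2 and 3, with static 2 inside the rotated range (0.29 ± 0.20). The dimmer Mtx1 probe set differed by 0.11 ± 0.21. Samm50, the barrel that inserts other barrel proteins, stood at 11.73, 11.85 and 11.85 in static 1, 2 and 3 and at 11.65, 11.47 and 11.97 in rotated 1, 2 and 3. It differed by -0.11 ± 0.19 by its brightest probe set, and by 0.067 with median centring. Its next probe set stood at 11.32, 11.09 and 11.36 against 10.66, 10.76 and 11.17 (-0.39 ± 0.21, adjusted p 0.622). Mtx2, another metaxin, stood at 10.72, 10.65 and 10.63 in static 1, 2 and 3 and at 10.54, 10.65 and 10.51 in rotated 1, 2 and 3. These arrays lay close together, and Mtx2 differed by -0.10 ± 0.19, and by 0.045 with median centring.

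The processing peptidase gave no single direction. Its regulatory subunit gene Pmpca stood at 10.49, 10.35 and 10.24 in static 1, 2 and 3 and at 10.89, 10.32 and 10.67 in rotated 1, 2 and 3 by the brighter probe set, with rotated 1 the highest array (0.27 ± 0.22, or 0.13 without it). The other Pmpca probe set stood at 10.09, 9.86 and 10.17 in static 1, 2 and 3 and at 9.30, 9.85 and 9.95 in rotated 1, 2 and 3, with rotated 1 the lowest (-0.34 ± 0.25). Its catalytic subunit gene Pmpcb stood at 11.89, 11.44 and 11.47 in static 1, 2 and 3 and at 11.48, 11.41 and 11.40 in rotated 1, 2 and 3. Static 1 was the high array, and the difference was -0.17 ± 0.19, or 0.0072 with median centring and -0.028 without static 1; the other probe set gave 0.14 ± 0.35.

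In the disulfide relay, the oxidoreductase gene Chchd4 stood at 10.31, 9.27 and 10.07 in static 1, 2 and 3 and at 10.58, 9.82 and 10.34 in rotated 1, 2 and 3. Each rotated sample was above the static sample of the same number while the groups overlapped (0.36 ± 0.32, adjusted p 0.729). The difference was 0.054 without static 2, 0.19 without rotated 1 and 0.098 with array weights. Gfer, the sulfhydryl oxidase that recharges it, stood at 10.62, 10.05 and 10.43 in static 1, 2 and 3 and at 9.78, 9.98 and 10.54 in rotated 1, 2 and 3 by its brighter probe set (-0.27 ± 0.27). The other Gfer probe set stood at 9.98, 9.16 and 9.78 in static 1, 2 and 3 and at 9.92, 9.73 and 10.49 in rotated 1, 2 and 3 and pointed the other way (0.41 ± 0.30). Timmdc1, which carries a TIM name and is known as an assembly factor of respiratory complex I, stood at 7.39, 8.64 and 8.47 in static 1, 2 and 3 and at 9.09, 8.50 and 8.47 in rotated 1, 2 and 3. Its difference of 0.52 ± 0.37 rested on static 1 and rotated 1, and was -0.071 without these arrays.

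**Figure D3:**
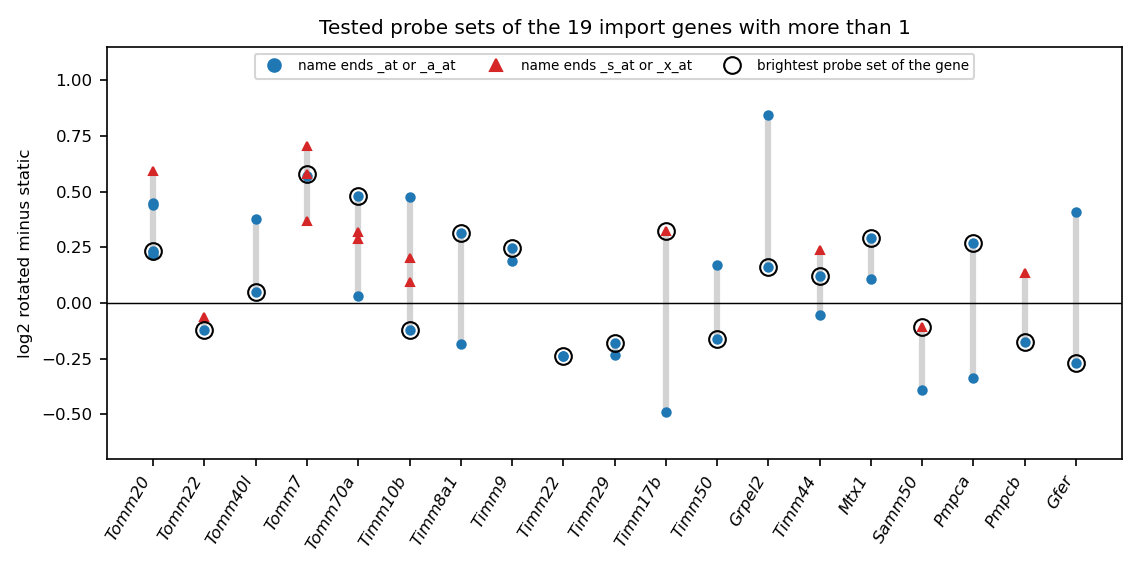
Log2 difference, rotated minus static, of every tested probe set (points) of the 19 import genes that have more than 1, with red triangles for probe sets whose suffix marks sharing with other transcripts and rings for the brightest probe set. All 6 Tomm20 and all 4 Tomm7 probe sets lie above 0, while in 8 genes, Timm17b and Gfer among them, points lie on both sides.

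Of the 19 genes with more than 1 tested probe set, 11 had all of them in 1 direction and 8 had them in both. Those in both directions were Gfer, Pmpca, Pmpcb, Timm10b, Timm17b, Timm44, Timm50 and Timm8a1. Over the 62 probe sets, 42 were higher and 20 lower in value, and the matching share of all tested probe sets is not given. Of the 62, 8 (12.9%) had all rotated above all static values, against 7.82% of all tested probe sets, and 3 had all rotated below all static values, against 7.29%. At an unadjusted p under 0.05 there were 4 higher (6.45%), 1 each of Timm8b, Tomm7, Tomm20 and Grpel2, and 0 lower, against 4.34% higher and 3.90% lower of all tested probe sets. With the replicate block 7 were higher, 3 of Tomm7, 2 of Tomm20 and 1 each of Timm8b and Tomm70a, against 7.29% of all tested probe sets. The block also gave 2 lower, 1 each of Timm17b and Samm50, against 7.35%, and none of the 9 passed after adjustment. Probe sets of 1 gene share their transcript and are not replicates. The 5 probe sets below the filter, 1 each of Tomm20l, Tomm70a, Timm8a2, Timm50 and Samm50, had deposited signals of 1.4 to 127.6.

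The spread between same-group samples was shared by many members. Replicate 2 was the lowest array of both groups in 9 of 32 genes (28.1%), against 15.8% of all tested genes: Timm8a1, Timm23, Pam16, Tomm70a, Chchd4, Timm10, Timm44, Tomm40 and Timm29. For Timm8a1 the gap between static 1 and static 2 was wider than the gap between any same-numbered samples. The difference between groups was larger than the SD within either group in 9 of the 32 genes (28.1%), against 29.1% of all tested genes. What the replicate numbers stand for is not given in the labels.

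**Figure D4:**
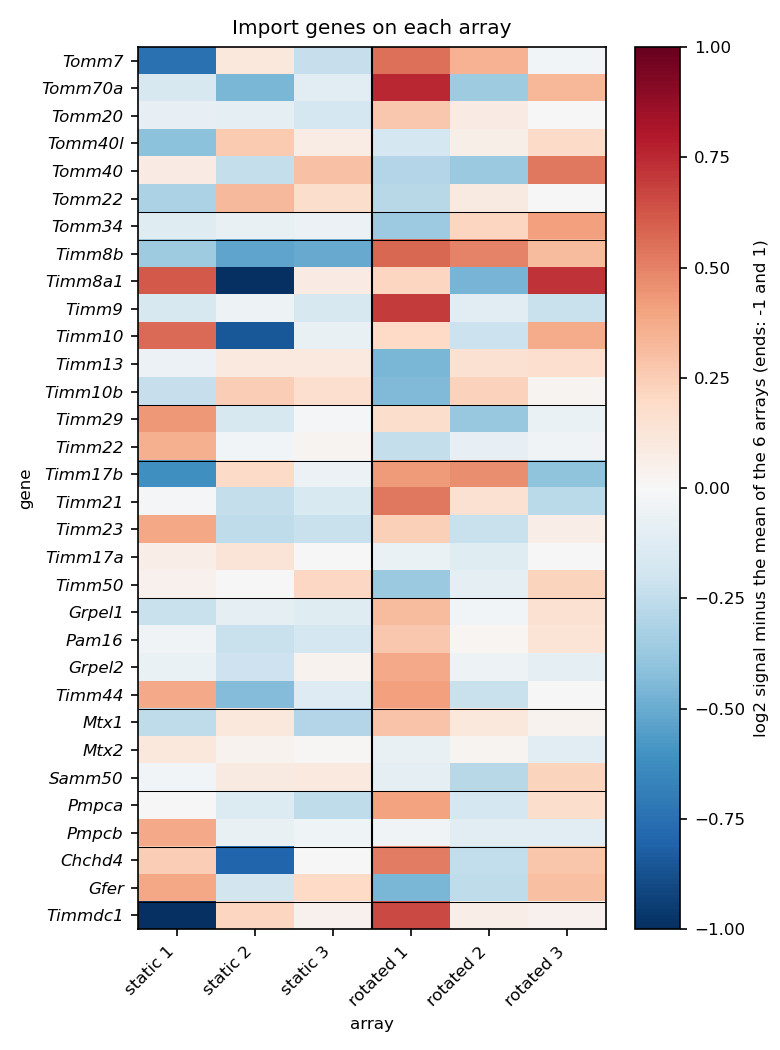
Normalised log2 signal of each import gene (rows, ordered by role and then by difference) on each array (columns), minus the gene's mean over the 6 arrays; colours end at -1 and 1. Timm8b is low in every static and high in every rotated sample, while Timm8a1, Timm10 and Chchd4 are lowest in static 2.

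Other genes of mitochondrial protein handling were read from a fixed list of 64, chosen with earlier results of these data known. Of these 59 were tested and 0 passed after adjustment. At an unadjusted p under 0.05 there were 6 higher (10.2%), against 4.49% of all tested genes, and 2 lower, against 3.74%. With the replicate block 10 were higher, against 8.23%, and 2 lower, against 6.75%, and 0 of the list passed after adjustment. All 6 matrix chaperone genes were higher in value, with a median of 0.41, though Hscb was level at 0.0061 ± 0.25. Hspe1, the co-chaperonin, stood at 12.32, 11.94 and 12.18 in static 1, 2 and 3 and at 13.35, 12.69 and 12.69 in rotated 1, 2 and 3 (0.77 ± 0.22, adjusted p 0.592). Dnaja3, a matrix co-chaperone, differed by 0.60 ± 0.26, by 0.38 without static 2 and by 0.019 as the mean over its probe sets. Hspa9, the Hsp70 of the import motor, differed by 0.20 ± 0.49 with 11.74 in static 2 and 12.17 in rotated 2 far below the other arrays. Without rotated 1 the Hspa9 difference was -0.0088.

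Substrates of the disulfide relay had 7 of 11 genes higher in value, with a median of 0.17. Chchd1, a mitochondrial ribosomal protein, stood at 11.71, 11.87 and 11.48 against 12.51, 12.45 and 12.04 (0.65 ± 0.20, adjusted p 0.592), and the copper chaperone gene Cox17 at 11.39, 11.44 and 11.19 against 12.76, 11.86 and 11.69 (0.77 ± 0.28). Neither overlapped between the groups, and without rotated 1 they differed by 0.56 and 0.44. Chchd5, with rotated values entirely below the static ones, went the other way (-0.40 ± 0.27). Carrier proteins, the substrates of TIM22, had 3 of 7 genes higher and 4 lower in value, with a median of -0.06. The oxoglutarate carrier gene Slc25a11 read 10.74, 10.75 and 10.87 in static 1, 2 and 3 and 9.38, 10.25 and 10.46 in rotated 1, 2 and 3 (-0.76 ± 0.29, adjusted p 0.592). Rotated 1 was its lowest array, and without it the difference was -0.43. The phosphate carrier gene Slc25a3 differed by 0.20 ± 0.14.

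Protein quality control genes had 4 of 9 higher and 5 lower in value, with a median of -0.05; Clpx, an unfoldase of the matrix, differed by 0.41 ± 0.31, or 0.11 without rotated 1 and 0.030 without static 1 and rotated 1. Afg3l2, a protease of the inner membrane, differed by 0.30 ± 0.34, or -0.036 without static 2. Among insertion and peptidase genes the insertase Oxa1l differed by -0.66 ± 0.34, by -0.35 without rotated 2 and by -0.075 as the mean over its probe sets. Immp1l, an inner membrane peptidase, differed by 0.37 ± 0.26, or 0.18 without static 3. The outer membrane pore gene Vdac1 differed by 0.46 ± 0.21 and Hspa8, a cytosolic chaperone that hands precursors to Tomm70a, by 0.28 ± 0.14. Of the regulators of mitochondrial biogenesis 6 of 13 were higher and 7 lower in value. Ppargc1b, a coactivator of this programme, stood at 6.55, 6.72 and 7.35 in static 1, 2 and 3 and at 8.79, 6.90 and 8.34 in rotated 1, 2 and 3 (1.14 ± 0.49, adjusted p 0.606), with rotated 2 in the static range. The Ppargc1b difference was 0.75 without rotated 1 and 0.26 with array weights. Gabpb1, a subunit of GA-binding protein, stood at 9.07, 9.20 and 9.20 against 8.46, 8.47 and 8.86 (-0.56 ± 0.24, adjusted p 0.606). The gene of nuclear respiratory factor 1, Nrf1, differed by -0.37 ± 0.24 and that of the other GA-binding protein subunit, Gabpa, by -0.02 ± 0.18.

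Mitochondrial ribosomal proteins and oxidative phosphorylation subunits gave medians of 0.06 over 76 tested genes and 0.11 over 90, beside 0.17 for the import genes. The rotated values lay entirely above the static ones in 10.5% and 12.2% of these genes, beside 12.5% of the import genes and 8.29% of all tested genes. No difference between these lists was tested.

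**Figure D5:**
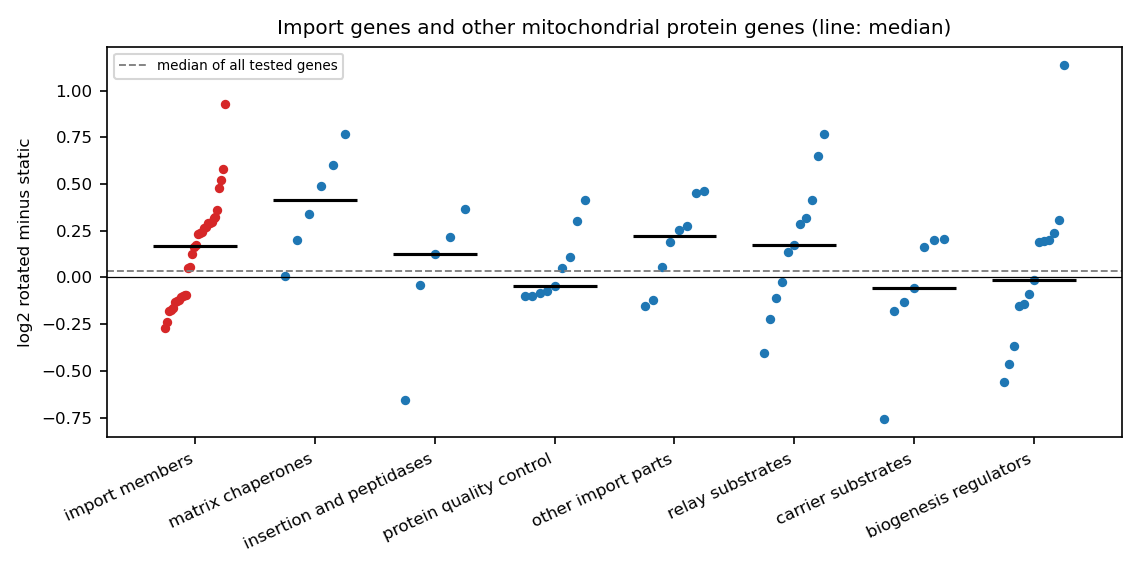
Log2 difference, rotated minus static, of each tested gene (points) in the import machinery (red) and in 7 fixed groups of related genes (blue), with the median of each group (black line) and of all tested genes (dashed). The matrix chaperones have the highest median, 0.41, and the carrier substrates the lowest, -0.06.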

How the data were processed

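Probe set intensities, as deposited, are linear. Each array has a mean of 500.0 after trimming 2% from each end, so the deposited values had been scaled by the authors; the software is not given in the sources used here, and detection calls were not used. The number of arrays limits the precision. Members and lists were chosen with earlier results of these data known.

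Values were taken as log2(intensity + 16.6), the offset being the 20th percentile, and quantile normalized in limma 3.58.1 (R 4.3.3). The 64 control probe sets and those with a mean below the 40th percentile (5.96) were left out, leaving 27022. Symbols come from the platform's probe table, updated by gene identifier; 34945 probe sets have 1 symbol, 932 several and 9160 none. A gene is represented by its brightest probe set. Among the genes named here, those of Tomm7, Timm17b, Pam16, Mtx2, Samm50, Hspe1, Cox17, Vdac1, Hspa8 and Afg3l2 carry a suffix that marks sharing or possible cross-hybridisation. Groups were compared by lmFit and eBayes with an intensity trend, two-sided, with Benjamini-Hochberg adjustment. The steps were run on simulated arrays with independent noise and planted changes larger than any member difference. That run does not bear on differences of the sizes reported here.

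Values on every array are given for the 12 member genes with the smallest p and those whose probe sets differ in direction. They are also given for the 2 further ones per role with the largest difference. Of related genes, the 2 with the smallest p per group were named. For Dnaja3, Oxa1l, Immp1l, Clpx, Afg3l2, Vdac1, Hspa8 and Slc25a3 differences are given without the values on every array. Timm13, Chchd5, Hspa9, Hscb, Nrf1, Gabpa and Sdhd were chosen after their values were seen. Deviations from group means correlated at 0.20, 0.31 and 0.33 between same-numbered samples, so a fit with the number as a block was set beside the main fit. Correlations between the others were below 0, which follows in part from subtracting the group means and adds no support. The main fit takes no pairing into account, nor do its SE, p and intervals. This pairing comes from the data, and the labels do not say what the numbers mark. Counts with the block are printed beside those at an unadjusted p.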

Additional observations from a re-analysis of the deposited data

How the results depend on the processing

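The 32 tested import genes and 14 related ones were recomputed under 17 alternatives: median centring or no further normalization, an offset of 4.2 or 66.4, no filter or one at the 60th percentile, no intensity trend, the replicate block, array weights, averaging a gene's probe sets, and samples left out. Of 782 gene values, 742 kept their direction and stayed short of the adjusted threshold, as all of Timm8b's did (0.87 to 1.07), and 40 turned in direction. The number of probe sets past adjusted p 0.05 was 22 with array weights and 2 with the replicate block, 0 of them members, and 0 under the other alternatives that were fitted on probe sets. At the adjusted threshold the replicate block changed no call of an import or related gene. At an unadjusted p under 0.05 it moved the member probe sets from 4 higher and 0 lower to 7 and 2. It moved the related genes from 6 higher to 10. Over all tested probe sets the block moved the share higher from 4.34% to 7.29% and the share lower from 3.9% to 7.35%. Over all tested genes it moved the share higher from 4.49% to 8.23%. The members' median was 0.29 with median centring, which moved that of all tested genes from 0.03 to 0.13, 0.061 with array weights, 0.055 without static 1 and rotated 1, and 0.031 to 0.20 with 1 sample left out. The members higher at an unadjusted p under 0.05 were 2 without the filter, 3 with array weights, 3 with the replicate block and 1 to 2 with 1 sample left out. With array weights the share of all tested genes higher was 9.77%. Probe sets at that p in either direction, not matched to genes counted higher, numbered 3171 of 45037 without the filter. With 1 sample left out they numbered 1091 to 3362 of 27022. The cause of these changes was not tested.

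With median centring the differences were 0.027 for Timm10b, 0.039 for Timm17a, 0.067 for Samm50, 0.035 for Tomm22, 0.0072 for Pmpcb, 0.045 for Mtx2 and 0.074 for Timm13. As the mean over probe sets they were 0.16 for Timm10b, -0.036 for Pmpca, 0.069 for Gfer, -0.083 for Timm17b and 0.0023 for Timm50. Without static 1 and rotated 1 they were -0.071 for Timmdc1, 0.050 for Tomm40, 0.017 for Gfer, -0.062 for Timm9, -0.044 for Tomm40l, -0.035 for Timm17b and 0.060 for Timm13. Tomm40l was -0.068 with the values as deposited and -0.015 with array weights, and Timm13 was 0.0012 with array weights. With 1 sample left out the ranges were -0.19 to 0.70 for Timm8a1, -0.055 to 0.27 for Timm23, -0.13 to 0.58 for Timm10, -0.064 to 0.34 for Timm44, -0.27 to 0.071 for Timm10b, -0.38 to 0.070 for Tomm40, -0.045 to 0.42 for Timm9, -0.24 to 0.0069 for Samm50, -0.31 to 0.0084 for Tomm22, -0.14 to 0.19 for Tomm40l, -0.20 to 0.11 for Timm13 and -0.036 to 0.54 for Afg3l2.

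Dim probe sets understate differences on the offset scale, and 3 arrays per group leave intervals that include 0 for every import gene's brightest probe set except Timm8b's.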
